A study of Drosophila melanogaster with 3 samples.

Results

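The cytoplasmic ribosomal protein genes of Drosophila melanogaster encode the protein part of the large and small subunits of the ribosome outside the mitochondria. They were taken by name: every protein-coding gene whose symbol begins with RpL or RpS followed by a digit or P, plus sta (stubarista), which encodes the small-subunit protein RpSA. This gave 93 of the 13945 protein-coding genes on the chromosome arms analysed, 54 of the large and 39 of the small subunit. The rule used symbols only and no measured value. It also admitted 5 genes with symbols ending in -like, and 88 genes remained without them.

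The study mapped chromatin binding of Scalloped by ChIP-seq. Scalloped (gene sd) is the fly TEA-domain transcription factor. A transgenic line carrying an sd-eGFP fusion was used, and the fusion was precipitated with an anti-GFP antibody from whole mixed-sex embryos aged 4 to 20 h, after sonication to 200 to 800 bp. There was a single group of 3 biological replicates, labelled as separate biosamples, and no second genotype, age or treatment. The labels do not say whether untagged Scalloped was also present, and a whole embryo mixes many cell types, so a weak summit could reflect few cells or low occupancy and these cannot be told apart.

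Scalloped has no strong activation domain of its own and partners with Yorkie, the coactivator held in check by Hippo signalling, to drive genes of growth and survival. Ribosomal protein genes are among the most highly transcribed genes of growing cells, and loss of 1 copy of many of them gives the Minute phenotype of slow development and thin bristles. Their promoters are short, commonly start at a pyrimidine-rich initiator (the TCT motif) in place of the usual one, and often carry sites for factors such as M1BP and DREF.

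The deposited data were 5 lists of narrow peaks in dm6 coordinates. There was 1 list of 30000 peaks for each replicate, 1 of 30000 peaks for the pooled reads, and 1 of 10553 peaks that passed the authors' test of reproducibility (irreproducible discovery rate, IDR). The IDR peaks were the 10553 strongest of the pooled list. Each peak has a summit, the base of highest enrichment, and a signal value given by the authors, which is used here only to rank peaks within 1 list, with rank 1 the strongest. Read totals were not in these lists, so the depth behind each peak is unknown. A gene was counted as having a summit when one lay within 1000 bp of any of its annotated transcription start sites (TSSs). A summit was called an own-start summit when that gene's TSS was also the closest protein-coding TSS to it.

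The promoters of 6 genes with an own-start summit are shown because they hold the motifs described further on. The windows run from 130 bases before to 20 bases after the TSS on the gene's own strand, so that base 131 is the TSS. Capitals mark CTTTT or CTTTC beginning between 5 bases before and 15 after the TSS, and TATCGATA, CACGTG, GGTCACAC, GGTATTTT or CATTCC on either strand. The initiator counted further on had to begin within 5 bases of a TSS. The marked CTTTT of RpL6 begins farther away, and RpL6 is counted among the genes without the initiator. The summit stood at base 73 in RpL23A (chr3L:1668634-1668784, minus strand) and at base 67 in RpL30 (chr2L:19009286-19009436, minus strand). It stood at base 23 in RpLP1 (chr2L:419822-419972, plus strand) and at base 21 in RpL6 (chr3R:31596184-31596334, minus strand). In RpS25 (chr3R:11216267-11216417, minus strand) it stood at base 20, and in RpS10b (chrX:19597901-19598051, plus strand) at base 110.
RpL23A: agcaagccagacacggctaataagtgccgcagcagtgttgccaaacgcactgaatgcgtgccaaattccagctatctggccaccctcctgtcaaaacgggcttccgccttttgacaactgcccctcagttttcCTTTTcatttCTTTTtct
RpL30: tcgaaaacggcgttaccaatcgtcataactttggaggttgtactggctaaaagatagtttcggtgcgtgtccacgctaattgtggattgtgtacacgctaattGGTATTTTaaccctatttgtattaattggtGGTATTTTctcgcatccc
RpLP1: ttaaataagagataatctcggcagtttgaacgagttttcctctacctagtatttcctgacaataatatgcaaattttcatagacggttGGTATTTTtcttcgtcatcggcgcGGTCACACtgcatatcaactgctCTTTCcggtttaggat
RpL6: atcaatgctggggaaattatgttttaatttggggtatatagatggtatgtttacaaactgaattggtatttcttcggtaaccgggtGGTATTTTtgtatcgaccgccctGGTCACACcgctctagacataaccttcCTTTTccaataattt
RpS25: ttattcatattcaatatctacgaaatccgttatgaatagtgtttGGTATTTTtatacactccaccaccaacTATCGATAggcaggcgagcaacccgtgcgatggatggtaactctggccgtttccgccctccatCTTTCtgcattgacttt
RpS10b: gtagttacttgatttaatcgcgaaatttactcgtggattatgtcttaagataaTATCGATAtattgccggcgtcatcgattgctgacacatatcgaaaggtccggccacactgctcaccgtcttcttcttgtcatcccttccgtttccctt

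The other pair of windows shows the only ribosomal protein gene summits with CATTCC, the core recognised by TEA-domain proteins, within 100 bp. Each window holds 60 bases to either side of the summit on the plus strand, with the summit at base 61 and the match on either strand in capitals. The RpS10a window (chr3R:27652300-27652420) lay in an intron of tau, which codes for a microtubule-binding protein. The RpS21 window (chr2L:2855960-2856080) lay just upstream of RpS21 and ran 11 bases into its transcript.
RpS10a: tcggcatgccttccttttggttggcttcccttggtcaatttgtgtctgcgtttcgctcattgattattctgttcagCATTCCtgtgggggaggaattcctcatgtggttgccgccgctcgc
RpS21: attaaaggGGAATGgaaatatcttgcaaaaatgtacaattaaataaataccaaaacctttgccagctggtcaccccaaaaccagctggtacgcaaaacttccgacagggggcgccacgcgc

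A summit lay within 1000 bp of a TSS for 48 of the 93 ribosomal protein genes, or 51.6% (exact 95% binomial interval 41 to 62.1%), against 30.3% of the other 13852 protein-coding genes. The interval covers counting error over genes only. Ribosomal protein genes are short, with a median length of 1318 bp against 2180 bp, and 51.6% of them had a single TSS against 73.6% of other genes. When other genes were weighted to the same bins of gene length and TSS number, 28% had a summit. Among the 10553 strongest peaks of each replicate taken alone, 44, 54 and 48 ribosomal protein genes had a summit in replicates 1, 2 and 3. That is 52.3 ± 5.41% (SD, n = 3), against 31.4 ± 3.39% of other genes and 28.2 ± 3.65% after weighting. In every replicate the share of ribosomal protein genes lay above both references, and the lowest share, 47.3%, exceeded the highest of other genes, 35.2%.

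Some of these summits lay nearer to a neighbouring gene. Another protein-coding TSS lay within 1000 bp of 63.4% of ribosomal protein genes and of 42.8% of other genes. With such a neighbour, 36 of 59 ribosomal protein genes (61%) had a summit against 38.6% of other genes. Without one, 12 of 34 did (35.3%, interval 19.7 to 53.5%) against 24.2%, which lies inside the interval. An own-start summit was found for 34 of the 93 genes (36.6%, interval 26.8 to 47.2%). This compares with 24.2% of other genes and 20.6% after weighting. In the top peaks of the single replicates, 33, 42 and 34 genes had an own-start summit, or 39.1 ± 5.3% (SD, n = 3) against 25 ± 2.21% of other genes. The share was therefore lower under this stricter rule and still above that of other genes in each replicate.

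**Figure D1:**
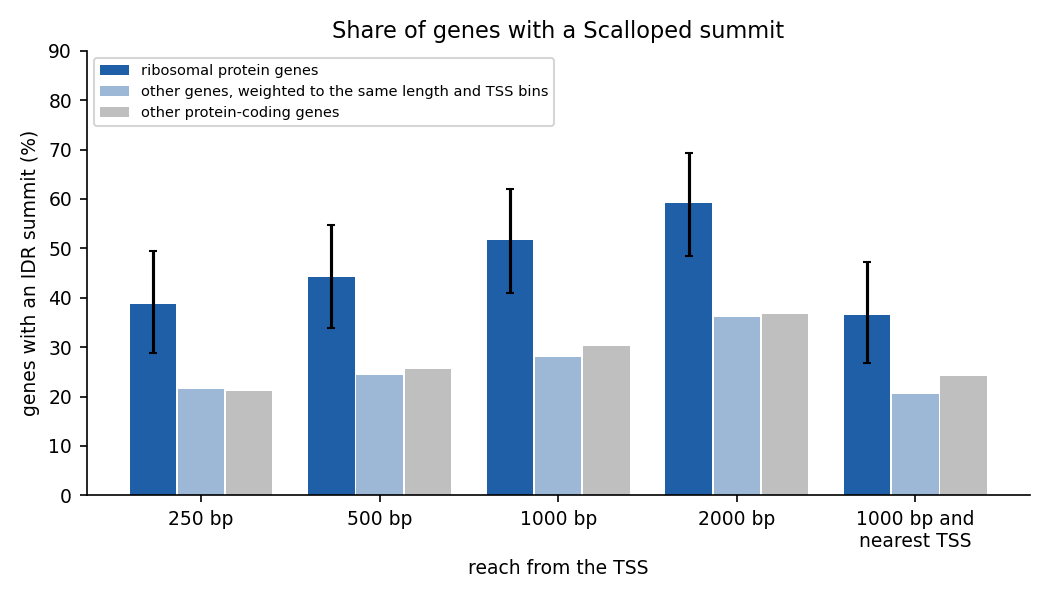
The plot gives the percentage of genes with an IDR summit for 93 ribosomal protein genes (dark blue, with exact 95% binomial intervals), other protein-coding genes weighted to the same bins of length and TSS number (light blue), and all 13852 other protein-coding genes (grey). From 250 to 2000 bp from the TSS the dark bars rise from 38.7% to 59.1%, above the grey bars of 21.2% to 36.8%, and the last group, which needs the gene's TSS to be the nearest one, gives 36.6% against 24.2%.

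The remaining 14 genes had summits that were all nearer to another gene. RpLP0-like, which holds the highest-ranked summit of all 93 genes at rank 412, is an example: the summit lay 55 bp upstream of its TSS and 32 bp from that of 14-3-3zeta, which codes for a phosphoprotein-binding adaptor. The summit of RpL13, a large-subunit gene, at rank 3564 lay 59 bp upstream of its TSS and 25 bp from that of Dref, the gene of the DRE-binding factor. The summits of RpS19b (rank 1251) and RpL34a (rank 1252) were 17 bp from CG5854 and 53 bp from PIG-P and Tcs6. That of RpS28a (rank 1867) was 141 bp from Mgat2. For RpL26, RpS13, RpS14a, RpS15, RpS5a, RpL7-like, RpS28-like and RpL10Ab the ranks ran from 4250 to 10114. In a shared promoter region these lists do not assign a summit to either gene.

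The shares of large and small subunit genes lay within each other's intervals. A summit was present for 27 of 54 large-subunit genes (50%, interval 36.1 to 63.9%) and 21 of 39 small-subunit genes (53.8%, interval 37.2 to 69.9%), and an own-start summit for 20 and 14 of them. Among the large-subunit genes with an own-start summit, the strongest were RpL23A at rank 865, RpL30 at rank 1222, RpL34b at rank 1305, RpL4 at rank 1724 and RpL7 at rank 1994. RpL27A followed at rank 3405. Among the small-subunit genes they were RpS10a at rank 774, RpS2 at rank 1647, RpS27 at rank 1772, sta at rank 2260 and RpS20 at rank 3466. All 3 genes of the acidic stalk of the large subunit, which recruits elongation factors, had an own-start summit: RpLP0 at rank 4507, RpLP1 at rank 4147 and RpLP2 at rank 7699.

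The replicate ranks show how evenly these summits were found. RpL23A ranked 1200, 533 and 996 in replicates 1, 2 and 3, and RpL30 ranked 1430, 869 and 1484. RpL34b ranked 1426, 1083 and 1474, and RpS27 ranked 1983, 1603 and 1930. These summits were in the upper part of every list, with replicate 2 the strongest. RpS10a went the other way, with ranks of 471, 2630 and 719, and sta ranked 1827, 3251 and 2481. RpL7A, on the X chromosome, ranked 5178, 15674 and 6301.

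**Figure D2:**
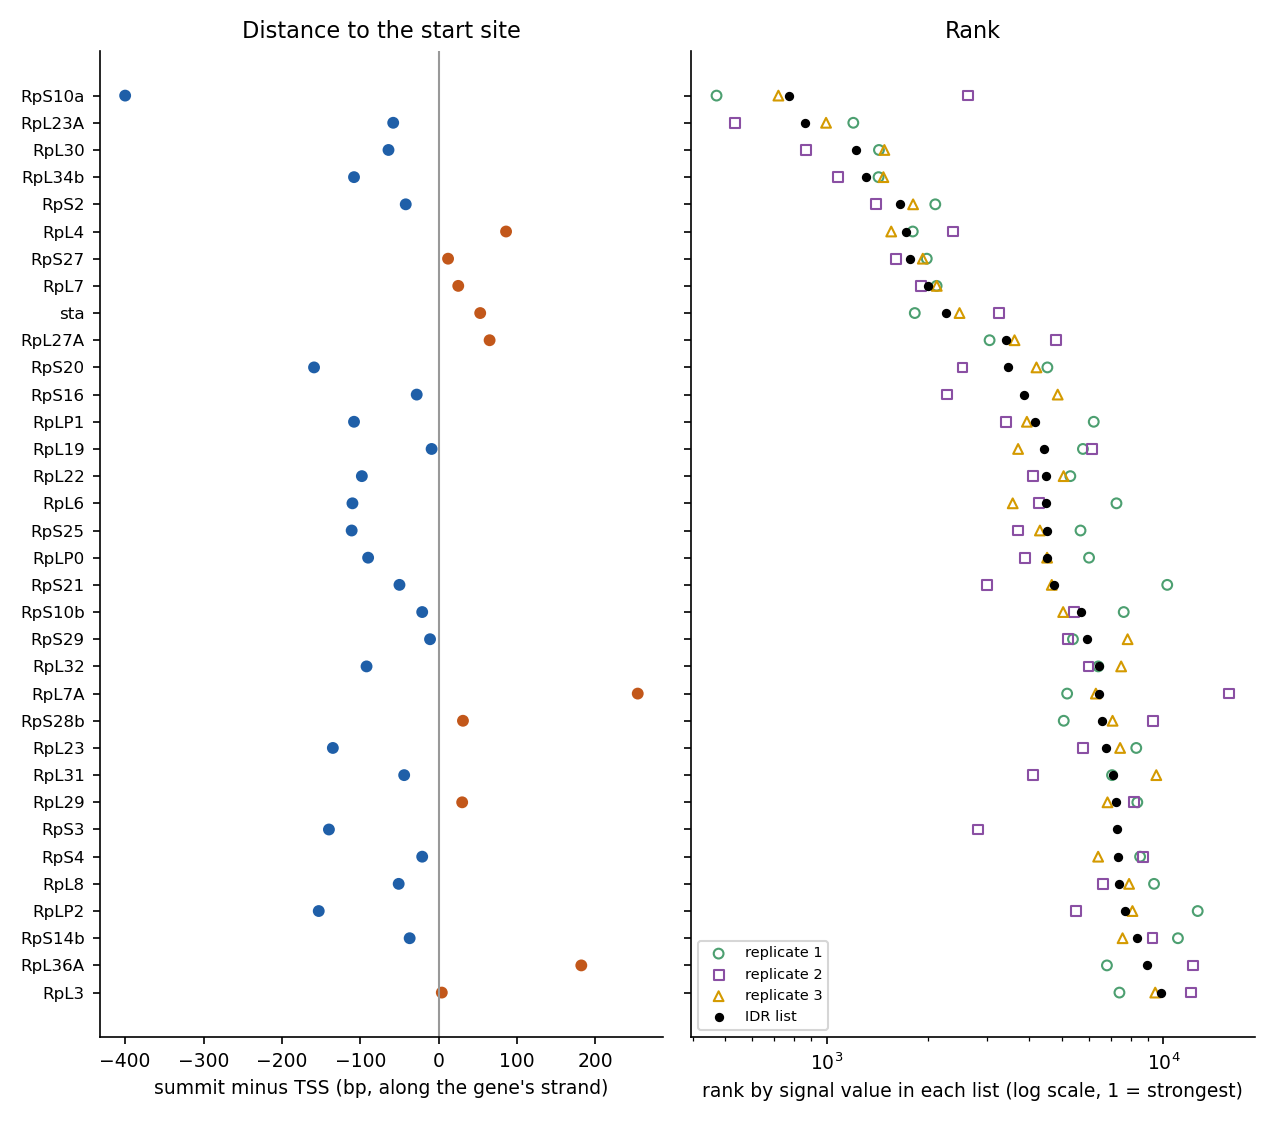
Each row is 1 of the 34 ribosomal protein genes with an own-start summit, ordered by rank in the IDR list. The left panel gives the signed distance in bp from the TSS to the summit (blue upstream, orange downstream), and the right panel the rank by signal value in the IDR list (filled) and in each replicate (open), on a log scale. All but RpS10a at -400 bp and RpL7A at 254 bp lie within 200 bp of the TSS, and a missing open symbol means no summit of that replicate within 100 bp.

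Own-start summits of ribosomal protein genes lay close to the TSS. Their median signed distance was -43 bp, where a negative value is upstream, and 24 of 34 (70.6%) were upstream, against 65.2% of other genes. The median absolute distance was 61 bp against 147 bp for other genes. Within 200 bp of the TSS lay 32 of 34 (94.1%), against 60.2%. A near neighbour limits how far away an own-start summit can be, so the genes were also split by it. Among genes with no other protein-coding TSS within 1000 bp, 11 of 12 ribosomal protein summits lay within 200 bp (91.7%), against 51.7% of other genes. With a neighbour, 21 of 22 did (95.5%), against 71.2%. These distances were not weighted by gene length. The 34 genes had a median length of 1315 bp, against 4501.5 bp for the other genes with an own-start summit. Whether length had a part in the distances was not tested. The summit was upstream of RpL19 by 9 bp, of RpS29 by 11 bp and of RpS4 by 21 bp, and downstream of the TSS of RpL3 by 4 bp and of RpS27 by 12 bp.

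**Figure D3:**
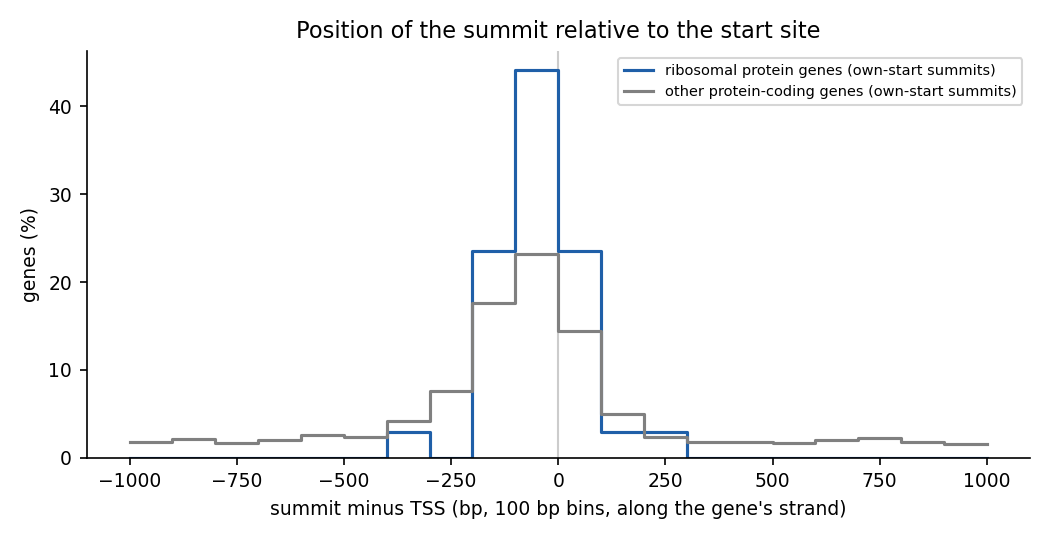
Step lines give the percentage of genes with an own-start summit in each 100 bp bin of signed distance from the TSS, for 34 ribosomal protein genes (blue) and 3354 other protein-coding genes (grey). The blue line reaches 44.1% in the bin just upstream of the TSS and 23.5% in the bins on either side of it, and holds no gene beyond 400 bp, while the grey line extends to both ends.

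The summits were of middling strength. The strongest summit of each of the 48 genes had a median rank of 4332.5 in the IDR list, against 3707 for other genes with a summit. Only 3 of the 48 (6.25%) were among the first 1000 IDR peaks, namely RpLP0-like, RpS10a and RpL23A, against 17.4% of other genes. For own-start summits the median rank was 4503 against 3866.5, and 5.88% against 16.2% were in the first 1000. A higher share of genes with a summit thus came without higher ranks.

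Most of these summits recurred in the replicates. The 48 genes had 62 distinct IDR summits, of which 54 (87.1%, interval 76.1 to 94.3%) were matched to within 100 bp by each of the 3 replicates. The share was 89.9% of other IDR summits near a protein-coding TSS, which lies inside the interval. Of the rest, 6 were found in 2 replicates and 2 in a single one. The summits missing from a replicate belonged to RpS16 (both of its summits), RpL36A, RpL26, RpL3, RpL32, RpS3 and RpS5a. RpS3 encodes a small-subunit protein that also has a DNA repair activity. Its stronger IDR summit, at -140 bp and rank 7273, was matched only in replicate 2, at rank 2809, and its other summit, at 59 bp and rank 10074, was matched in all 3 replicates. RpL3 and RpL32 likewise had another summit that all 3 replicates matched. Where all 3 replicates had an own-start summit, its position had an SD of 2 to 69.6 bp between them. The peak lists hold no summits closer than 199 bp, and 9 pairs of ribosomal protein gene summits were 199 to 215 bp apart, at that limit.

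Replicate 2 ranked these promoters higher than the other replicates did. Of the 31 own-start summits found in all 3 replicates, 18 (58.1%) had their best rank in replicate 2, against 41.8% of 3046 such summits of other genes. Their median ranks were 5674, 4104 and 4515 in replicates 1, 2 and 3, against 3926, 3683.5 and 3768.5 for other genes. Peaks near any protein-coding TSS made up 44.2, 49.8 and 46% of the top peaks of the 3 replicates, highest also in replicate 2. Whether the makeup of that library had a part in the ranks was not tested.

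No IDR summit lay within 1000 bp of 45 genes. In the longer pooled list 62 of 93 genes (66.7%) had one, against 42.6% of other genes, and 14 of these genes appear there only. Among the best ranked were RpL28 at 10886, RpS9 at 10928, RpS19a at 11737 and RpS3A at 11922, all past the end of the IDR list. The other 31 genes had none in the pooled list. RpS6, the small-subunit protein phosphorylated downstream of TOR, was among them, although replicates 2 and 3 listed a summit at ranks 10684 and 13421. Of the genes that encode a ribosomal protein fused to ubiquitin, RpL40 had a pooled summit at rank 15045 and RpS27A had none in any list. RpL10, RpL15, RpL21, RpL38 and RpL5 had no IDR summit within 50 kb, and these 5 genes lie toward the centromeric ends of their arms. Just inside the limit of 1000 bp were the summits 991 bp from RpL34a, 988 bp upstream of RpL10Ab and 970 bp from RpL34b, which also has an own-start summit 108 bp upstream. Just outside were RpS12 at -1073 bp, RpS23 at -1140 bp and RpL13A at -1271 bp.

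The site sequence of TEA-domain factors was infrequent at these summits. CATTCC, searched on both strands, occurred within 100 bp of 2 of 62 summits (3.23%, interval 0.393 to 11.2%). It occurred at 16.7% of the 4740 other IDR summits near a protein-coding TSS and at 19.8% of all IDR summits. Of the 37 summits nearest to a ribosomal protein gene, 2 held it (5.41%, interval 0.661 to 18.2%), and 16.7% lies inside that interval. Of the 25 summits nearer to another gene, none did (interval 0 to 13.7%). The 2 cases were RpS10a, where the centre of the match lay 18.5 bp from a summit of rank 774, and RpS21, at 49.5 bp from a summit of rank 4731. RpS10a and RpS21 are both small-subunit genes, and the RpS10a summit was also the most distant of the own-start summits. With 200 bp to either side, 9 of 62 summits (14.5%, interval 6.86 to 25.8%) held CATTCC against 23.2%, which lies inside the interval. CTACTC, the same letters in another order, was at 3.23% of the ribosomal protein gene summits and 3.92% of the others. Median GC content was 43.3% and 41.8%.

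Several motifs of housekeeping promoters were more frequent than at other TSS-near summits. GGTCACAC, the core of the promoter Motif 1 to which M1BP binds, lay within 100 bp of 12 of 62 summits (19.4%, interval 10.4 to 31.4%) against 3.78% of other TSS-near summits. Among the IDR peaks ranked above the middle of the list the counts were 11 of 32 (34.4%) against 3.7%, and below it 1 of 30 (3.33%) against 3.87%. The genes with this match at an own-start summit were RpL30, RpL7, sta, RpL27A, RpLP1, RpL6 and RpLP0. The other 5 summits with it were nearer to another gene. GGTATTTT, the core of promoter Motif 6, was at 8 summits (12.9%, interval 5.74 to 23.9%) against 4.24%. RpL30, RpLP1, RpL6 and RpLP0 held both at an own-start summit. TATCGATA, the DRE site of DREF, was at 7 summits (11.3%, interval 4.66 to 21.9%) against 4.18%. Of the 37 summits nearest to a ribosomal protein gene, 4 held TATCGATA (10.8%, interval 3.03 to 25.4%), and 4.18% lies inside that interval. GGTCACAC and GGTATTTT were each at 7 of the 37 (18.9%, interval 7.96 to 35.2%), with the share of other TSS-near summits below the interval. CACGTG, the E-box used by Myc and Max among others, was at 7 of the 62 summits (11.3%) against 2.81%, among them RpL7, RpL7A, RpS28b, RpL29, RpS4 and RpS16. It was at 6 of the 37 (16.2%, interval 6.19 to 32%). Split at the middle of the list as above, GGTATTTT was at 7 of the 32 stronger (21.9%) and 1 of the 30 weaker summits (3.33%), against 4.58% and 3.82% of other TSS-near summits. TATCGATA was at 4 (12.5%) and 3 (10%), against 4.08% and 4.29%. CACGTG was at 2 (6.25%, interval 0.766 to 20.8%) and 5 (16.7%, interval 5.64 to 34.7%), against 2.52% and 3.16%. These 2 intervals overlapped. GAGAG, bound by the GAGA factor, was less frequent (14.5% of the 62 against 31.9%), as was TATAAA (11.3% against 25.1%). Of the 37 summits, 8.11% held GAGAG (interval 1.7 to 21.9%) and 10.8% TATAAA (interval 3.03 to 25.4%), and 25.1% lies inside the latter. CAGCTG was at 9.68% of the 62 against 11.6%, and AATTCC at 22.6% of both sets. The sets of summits were not matched on distance to the TSS. Own-start summits of ribosomal protein genes lay nearer to it, at a median of 61 bp against 147 bp for other genes. A match of these letters is a description of sequence, not evidence that a factor was bound.

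**Figure D4:**
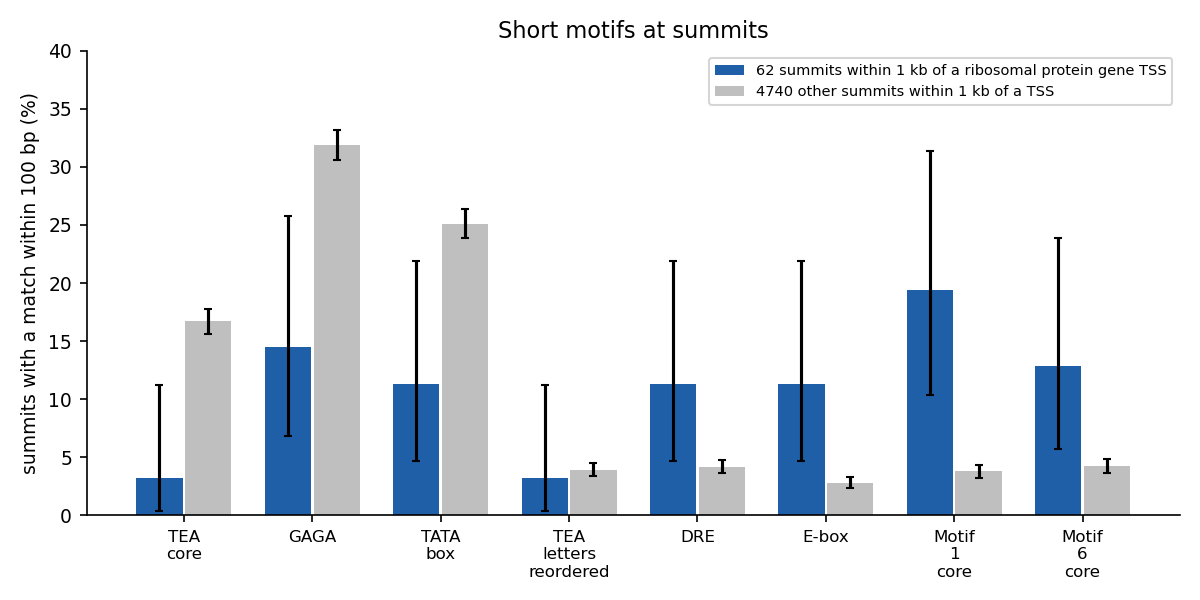
Bars give the percentage of summits with a match on either strand within 100 bp, with exact 95% binomial intervals, for 62 summits near ribosomal protein genes (blue) and 4740 other IDR summits within 1000 bp of a protein-coding TSS (grey). The TEA core is at 3.23% against 16.7%, and the Motif 1 core at 19.4% against 3.78%.

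The promoters of all 93 genes were searched for the same motifs. From 250 bases before to 50 after any TSS, TATCGATA occurred in 30.1% of the 93 genes against 10% of other genes. GGTATTTT occurred in 21.5% against 6.17%, GGTCACAC in 17.2% against 8.66%, and CACGTG in 17.2% against 5.26%. CATTCC occurred in 9.68% (interval 4.52 to 17.6%) against 14.4%. Split by summit, GGTCACAC occurred in 23.5% of the 34 genes with an own-start summit (interval 10.7 to 41.2%) and in 13.6% of the 59 without (interval 6.04 to 25%). TATCGATA occurred in 20.6% (interval 8.7 to 37.9%) and 35.6% (interval 23.6 to 49.1%), and CATTCC in 14.7% (interval 4.95 to 31.1%) and 6.78% (interval 1.88 to 16.5%). The intervals of the split genes overlapped for each of these motifs. Of the 3354 other genes with an own-start summit, 12.3% held GGTCACAC, 12.3% TATCGATA and 20.2% CATTCC. Each value lies inside the interval of the 34 genes. GGTATTTT was in 26.5% of the 34 (interval 12.9 to 44.4%) against 9.21%. CACGTG was in 20.6% (interval 8.7 to 37.9%) against 6.71%, and both of these lay below the interval. A pyrimidine initiator, CTTTT or CTTTC on the gene's strand beginning within 5 bases of a TSS, was found for 57 of the 93 genes (61.3%) against 4.76% of other genes. It was present in 22 of 34 genes with an own-start summit (64.7%, interval 46.5 to 80.3%). Of the 57 genes with this initiator 38.6% had an own-start summit, and of the 36 without it 33.3% (interval 18.6 to 51%). Among the 659 other genes with the initiator, 39.3% had an own-start summit (interval 35.6 to 43.1%), against 24.2% of all other genes.

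Duplicated ribosomal protein genes often differed within a pair. RpS10a, known as the copy with more restricted expression, had a summit of rank 774 at -400 bp, and RpS10b, the widely used copy on X, one of rank 5703 at -21 bp. RpL34b had an own-start summit, and RpL34a only one past its 3′ end next to PIG-P and Tcs6. RpS28b had an own-start summit at 31 bp, while RpS28a and RpS28-like had only summits nearer to Mgat2 and numb. RpS14a and RpS14b lie in tandem with nearly the same sequence, so reads may not be assignable between them, and their strongest summits, at ranks 9644 and 3832, were nearer to Dhdds and Ubr3. RpS14b also had an own-start summit at rank 8338. RpL22 had an own-start summit of rank 4486 and RpL22-like had none. RpL7 had one of rank 1994, and the summit near RpL7-like, rank 5416, lay 21 bp from JhI-21. RpS19b and RpS5a had only summits nearer to a neighbour, and RpS19a and RpS5b had no IDR summit. Likewise RpL10Ab had a distant summit and RpL10Aa none, and RpL37-1, RpL37-2, RpS15Aa and RpS15Ab had none.

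The intervals of the shares of ribosomal protein genes with a summit overlapped between X and the large autosome arms. On X, 8 of 15 genes had a summit (53.3%, interval 26.6 to 78.7%), namely sta, RpS28b, RpS14b, RpS14a, RpS5a, RpL22, RpS10b and RpL7A. Of other genes on X, 28% had a summit, which lies inside that interval. Shares on the large autosome arms ran from 42.9% to 60.9%, and RpS3A, alone on chromosome 4, had none. On chr2L (57.9%, interval 33.5 to 79.7%) and chr3R (60.9%, interval 38.5 to 80.3%) other genes lay below the interval, at 28.8% and 29.7%. On chr2R (42.9%, interval 21.8 to 66%) and chr3L (42.9%, interval 17.7 to 71.1%) they lay inside it, at 33.3% and 32%. Many ribosomal protein genes carry snoRNA genes in their introns. Of the 29 that do, 15 had a summit (51.7%), and of the 64 that do not, 33 did (51.6%).

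Other gene groups of translation and growth were examined in the same way. Of 73 mitochondrial ribosomal protein genes, which serve the organelle's own ribosome, 26 had a summit (35.6%, interval 24.7 to 47.7%). An own-start summit was found for 8 of the 73 (11%), against 24.2% of other genes. Another protein-coding TSS lay within 1000 bp of 60 of the 73, and their median length was 909 bp. Of the other genes with such a neighbour, 24.6% had an own-start summit. The mitochondrial share was not weighted by length, and whether neighbours or length had a part in it was not tested. The summit of mRpL41 at rank 111, an own-start one, led the list just ahead of that of mRpS10, which was nearer to Art3. Of 25 genes of initiation factors 10 had a summit, led by eIF4E1 at rank 610 and eIF3j at rank 792. Of 7 genes of elongation factors 5 did, led by eEF1alpha1 at rank 1844 and eEF2 at rank 3559. Of 23 ribosome assembly genes 13 did, led by Non1 at rank 54 and eIF6 at rank 129, and the latter summit was nearer to ytr. Among 8 RNA polymerase I genes only Polr1D had one, at rank 145. Of 9 genes of factors described at ribosomal protein promoters 7 did, led by pzg at rank 158 and M1BP at rank 733, both nearer to another gene. Of 11 regulators of the TOR and Myc pathways 7 did, led by Mnt at rank 2354 and Xrp1 at rank 2444. An own-start summit was found for 9 initiation, 5 elongation, 6 assembly and 1 RNA polymerase I genes. It was found for 4 of the promoter factors and 6 of the TOR and Myc regulators. These lists are small, and their counts are a description only. Of other genes, 30.3% had a summit and 24.2% an own-start summit.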

How the data were processed

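ChIP-seq peak lists from 3 biological replicates of 1 group were used as deposited. The authors' files are in narrowPeak form, in dm6 coordinates per the labels. Column 7 is the authors' signal value per peak. The deposited −log10 q-values were not used for ranking. The aligner, peak caller and IDR threshold are not given in the sources used here, and the control alignment was not analysed here. Summits (start plus peak offset, 1-based) were joined to TSSs of Ensembl release 115 (BDGP6.54, the same coordinates as dm6). Other genes were weighted by 5 bins of length and 3 of TSS number. A summit was shared by a replicate if one lay within 100 bp. Intervals are exact Clopper-Pearson intervals at 95% and cover counting error only. There is no contrast between groups, so no test was run. The join was tested on simulated summits. Members and lists were chosen with earlier results of these data known. Genes named were the 20 best ranked members, duplicated pairs, members at the distance limit, on X or missing from a replicate, 7 set members and the 2 best of each other list; others were named after their values were seen, and some members that the rule names are not reported here. GGTCACAC, GGTATTTT, AATTCC and the split by neighbours were added after the data were seen. The list symbols Fhl1, Tor and maf1 were not matched. Figures used matplotlib 3.10.9, intervals scipy 1.17.1, and joins pandas 2.3.3 with numpy 2.4.6 under Python 3.11.15.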

Additional observations from a re-analysis of the deposited data

How the results depend on the processing

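Each of 7 summary values was recomputed under its alternatives, 56 in all, and 32 moved by less than the spread between replicate lists or stayed within the interval. The share of ribosomal protein genes with a summit, 51.6%, was 38.7, 44.1 and 59.1% at 250, 500 and 2000 bp. It was 32.3% with IDR summits at or above the median signal, 58.1% in the top peaks of replicate 2 alone, 36.6% by nearest TSS and 66.7% in the pooled list. Keeping only IDR summits that both other replicates matched within 100 bp, for each replicate in turn, gave 47.3 to 49.5%. This setting is called without each replicate below. It can only remove summits, and the calls and ranks still came from all replicates. The weighted share of other genes, 28%, was 21.5% at 250 bp, 36.1% at 2000 bp, 18.3% with the stronger summits and 32.1% in replicate 2, and 25.7 to 26.7% without each replicate. The share of ribosomal protein genes was the higher in each of these settings, and also by nearest TSS, where the weighted share was 20.6%, and in the pooled list, where it was 39.2%. The median distance of the strongest summit, -61.5 bp, was -85 bp in replicate 2 and -94.5 bp with canonical TSSs, and -58.5 to -55 bp without each replicate. Recurrence in all replicates, 87.1%, was 69.4% within 50 bp and 71% among the top peaks only, since fewer summits can match. The median percentile, 59, was 70.7 with the stronger summits, by construction, and 50.4 in replicate 1, and 58.2 to 59.4 without each replicate. CATTCC, 3.23%, was 6.25% with the stronger summits, 5.45 and 4.92% in replicates 1 and 3, 1.61% within 50 bp and 14.5% within 200 bp, and 3.39 to 3.7% without each replicate. Other TSS-near summits held CATTCC at 20.6% among the stronger summits, which lies inside the interval of 0.766 to 20.8% for ribosomal protein genes. Their share was 11.5% within 50 bp and 23.2% within 200 bp. The initiator share, 61.3%, was 19.4% within 2 bases and 89.2% within 20. Among other genes the initiator share, 4.76%, was 1.92% within 2 bases and 17.2% within 20. Where no construction is named the cause was not tested. No paired analysis was possible because there is a single group. Read depth is unknown, so a gene without a summit is only one not listed.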
